A study of Mus musculus with 6 samples.

Results

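The miRNA genes mir-221 and mir-222 form a cluster. They were the 2 of 898 miRNA genes in the deposited table with these names. MicroRNAs (miRNAs) are short RNAs that pair with messenger RNAs, mostly through the seed at bases 2 to 8, and lower the output of these messages. Both members come from one stretch of the X chromosome and carry the same seed. They are known for repressing Cdkn1b (p27, an inhibitor of cyclin-dependent kinases) and Kit (the receptor of stem cell factor), and for high levels in endothelium, smooth muscle and proliferating tumour cells. Small RNA was sequenced in E14Tg2a, a mouse line of embryonic stem cells (ESCs) that grows without feeder cells, at passages 37-40. ESCs were kept in Leukemia Inhibitory Factor (LIF, 3 samples), and neuronal cells (NCs, 3 samples) were made from LIF-free monolayers with 1 µM Retinoic Acid (RA) for 48 hours. The NC label names a treatment of 48 hours and not a sorted neuron.

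The sequences show what the members share and where they part (RefSeq, GRCm38.p6; 5′ to 3′; capitals mark the seed). Each hairpin gives a 3p strand of 23 bases, and these begin with the same 8 bases.
miR-221-3p: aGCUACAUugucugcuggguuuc
miR-222-3p: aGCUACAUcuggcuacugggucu
miR-1928: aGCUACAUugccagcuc
miR-221-5p: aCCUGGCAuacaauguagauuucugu
Without gaps, 11 of the 23 positions of the 3p strands are identical, most of them in the shared first 8. Such a count does not see offset runs, such as the cugggu that both strands hold near the 3′ end. Of 1679 mature mouse miRNAs searched, 3 hold this seed. The third, miR-1928, shares its first 10 bases with miR-221-3p and was not analysed here. The other strand of the mir-221 hairpin, miR-221-5p, has a different seed. The table gave 1 value per miRNA gene, so the strands of a hairpin could not be told apart.

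The hairpins show how close the genes are in structure (capitals mark the 3p strand).
Mir221 hairpin: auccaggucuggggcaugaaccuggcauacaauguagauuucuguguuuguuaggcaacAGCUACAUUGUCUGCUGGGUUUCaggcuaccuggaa
Mir222 hairpin: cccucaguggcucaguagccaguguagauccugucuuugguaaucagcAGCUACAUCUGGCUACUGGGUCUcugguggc
Mir221 lies at chrX:19146294-19146388 and Mir222 at chrX:19146893-19146971, both on the minus strand of GRCm38, with 504 bases between them. Transcription thus reaches mir-222 first. Neither hairpin overlaps another annotated gene (GENCODE M21). The nearest gene upstream is the noncoding Gm14636, which ends 10009 bases from Mir222 on the same strand. The longest run of bases shared by the hairpins is 9, within which the seed lies. A read of full mature length can therefore be assigned to one member.

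The known targets carry the complement of the seed in their 3′ untranslated regions (UTRs). The 7 bases ATGTAGC, searched on the sense strand of the longest annotated 3′ UTR of each gene (GENCODE M21), occurred once in Cdkn1b, once in Cdkn1c (p57, a relative of p27) and 2 times in Kit. The sites are shown with 10 bases on each side (capitals mark the match).
Cdkn1b: aaagcattggATGTAGCattgcgcaat
Cdkn1c: cctttcgttcATGTAGCaggaaccgga
Kit, first site: tgggagatatATGTAGCaagactagaa
Kit, second site: aaatattgaaATGTAGCaataatgtct
They lie at chr6:134924421-134924447 (plus strand), chr7:143458916-143458942 (minus strand), chr5:75654982-75655008 and chr5:75656513-75656539 (plus strand). Each match is followed by an A, opposite the first base of the miRNA. Among 3′ UTRs within 20% of the same length, 22.3% held a match for the length of Cdkn1b, 4.69% for that of Cdkn1c and 15.2% for that of Kit. A match is a description of the letters, and the messages of these genes were not measured in these libraries.

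To find out whether the cluster changes when ESCs become NCs, its levels were first read from the group means of normalized read counts (reads after division by the size factor of their library). The mean of mir-221 was 69.1 in ESCs and 78.9 in NCs. The mean of mir-222 was 11.96 in ESCs and 16.8 in NCs. Both were thus low to middling miRNAs in either state. By mean, mir-221 ranked 191 of 549 detected miRNAs in ESCs and 179 of 602 in NCs, and mir-222 ranked 313 and 296. The median detected miRNA had a mean of 19.6 in ESCs and 16.1 in NCs, so mir-221 lay above it in both groups, while mir-222 lay under it in ESCs and just over it in NCs. In bulk samples, fewer cells that express a miRNA and less of it per cell cannot be told apart.

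The deposited means hide the single libraries, whose whole reads were recovered from the decimals of the means. In each group, the library with the highest size factor is called A and that with the lowest C (ESCs 1.62, 0.937 and 0.547; NCs 2.31, 0.977 and 0.585), and these letters are not the labelled replicates. The most abundant miRNAs could not be recovered, and the recovered ones held 12.3% of the summed mean in ESCs and 9.87% in NCs. The recovered reads ranged from 92342 to 214919 in ESC libraries and from 95145 to 352110 in NC libraries. They are thus not the full depth of the libraries. In ESCs, mir-221 had 110 reads in library A, 64 in B and 39 in C, or 67.8, 68.3 and 71.2 normalized counts. The 3 ESC libraries were nearly level, with an SD of 1.87 (n = 3), which is smaller than their counting error. The 39 reads of library C alone allow 50.7 to 97.4 normalized counts (exact Poisson interval, 95%). In NCs, mir-221 had 219 reads in A, 95 in B and 26 in C, or 94.9, 97.3 and 44.5 normalized counts (SD 29.8, n = 3). NC libraries A and B lay above all ESC libraries, and NC library C lay under all of them, so the groups overlapped. Such overlap was absent for 31.5% of the 308 miRNAs whose mean reached 10.

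mir-222 was the lower member in all 6 libraries. It had 13, 9 and 10 reads in ESC libraries A, B and C, or 8.01, 9.60 and 18.3 normalized counts (SD 5.52, n = 3). In NCs it had 53, 20 and 4 reads, or 23.0, 20.5 and 6.84 normalized counts (SD 8.69, n = 3). Again NC libraries A and B lay above all ESC libraries and NC library C under all of them. The counts were small, and 4 reads allow 1.86 to 17.5 normalized counts (exact Poisson interval, 95%, counting error only).

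**Figure D1:**
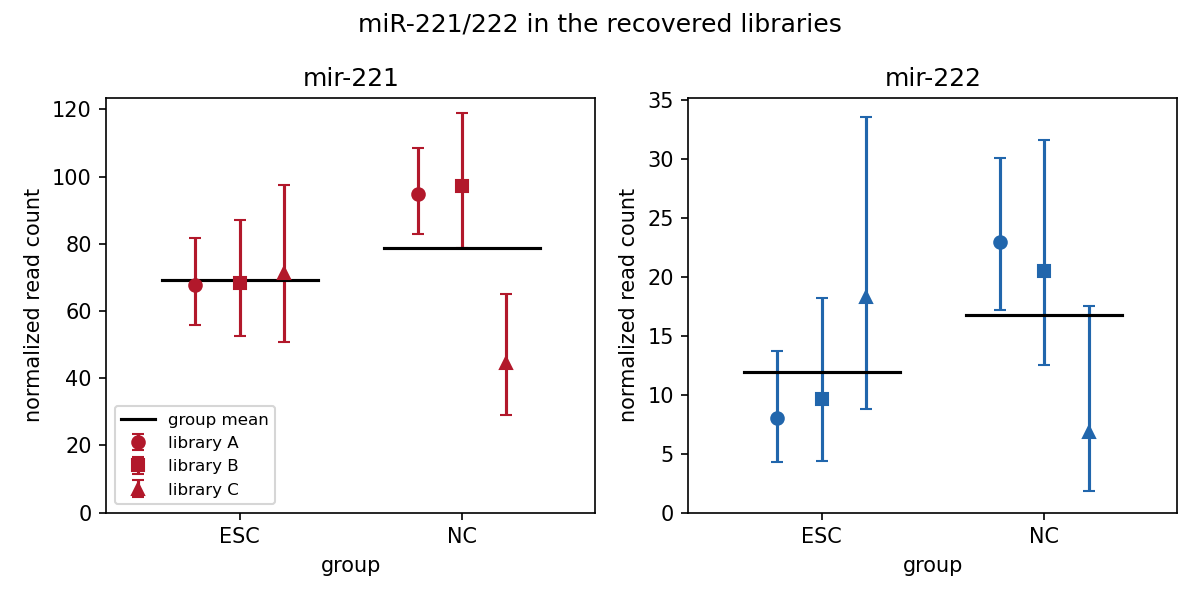
Normalized read counts of mir-221 (left) and mir-222 (right) in the 3 recovered ESC and 3 recovered NC libraries (circle A, square B, triangle C). Bars are exact 95% Poisson intervals of the reads and black lines are the group means. In both panels NC libraries A and B lie above every ESC library and NC library C lies lowest.

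For neither member was the difference between the groups larger than the spread of the libraries. The labels say that the samples were processed separately but not that they were separate cultures, so p-values measure only the spread between these samples. In limma-voom across 316 miRNAs, with Benjamini-Hochberg adjustment, mir-221 was 1.13-fold higher in NCs with a 95% interval of 0.652-fold to 1.96-fold (log2 difference 0.18 ± 0.33, SE; adjusted p-value 0.814). For mir-222 the ratio was 1.72-fold with an interval of 0.704-fold to 4.18-fold (log2 difference 0.78 ± 0.54, SE; adjusted p-value 0.452). The size for mir-222 depended on the model. With limma-trend on log2(normalized count + 1) it was 1.30-fold (interval 0.506 to 3.34, log2 difference 0.38, adjusted p-value 0.796). In the limma-voom fit 49 miRNAs, or 15.5%, had an adjusted p-value under 0.05, and 0 of the 2 members did. Of the 49, 31 were higher and 18 lower in NCs. Higher log2 differences than that of mir-221 were found for 119 of the 316 miRNAs, and than that of mir-222 for 68. The direction of mir-221 depended on the scaling. Equal summed means in both groups moved every log2 difference by -0.48, which put mir-221 at -0.30 and mir-222 at 0.30 and split the calls into 20 higher and 37 lower. With mir-10a left out of the sums, whose mean was 2136 in ESCs and 754551 in NCs, the shift was 0.44, the members were at 0.61 and 1.22, and the calls were 47 higher and 10 lower.

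**Figure D2:**
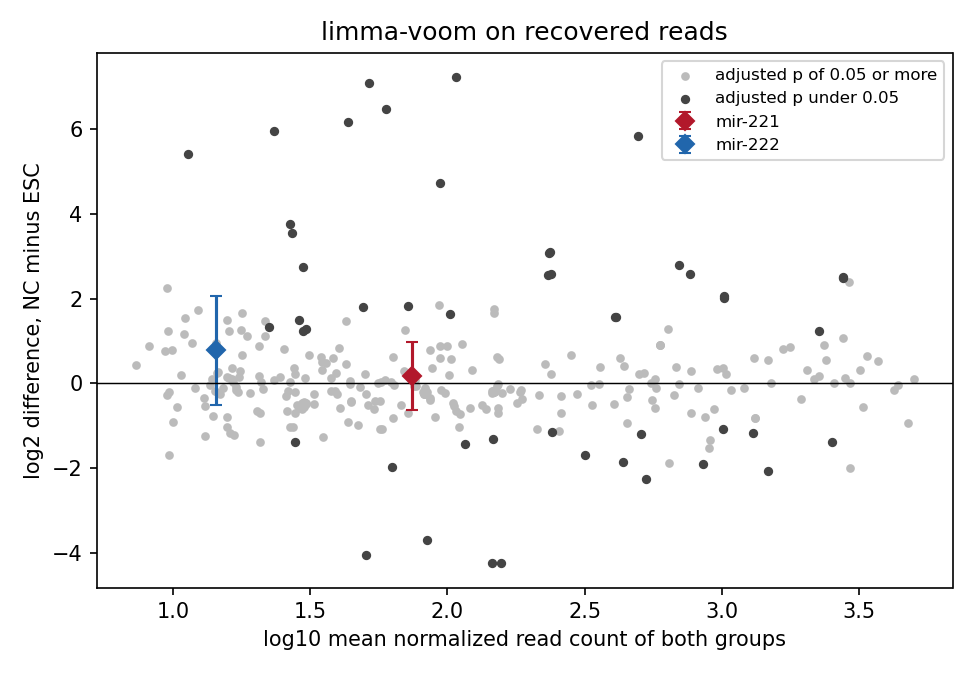
Log2 difference between NCs and ESCs (vertical axis) against the log10 mean normalized read count (horizontal axis) for the 316 miRNAs tested with limma-voom. The 49 dark points had an adjusted p-value under 0.05, and the members are diamonds with 95% intervals that cross 0.

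The C libraries ran against the others. Libraries of the same letter match only in the order of their size factors and are not known pairs. In libraries A and B, mir-221 was 1.40-fold and 1.42-fold higher in NCs than in the ESC library of the same letter, but in the C libraries the ratio was 0.624. For mir-222 the ratios were 2.87 and 2.13 in A and B, and 0.374 in C. With the 2 deeper libraries of each group alone, both members passed the threshold of limma-voom. mir-221 was then 1.41-fold higher in NCs (interval 1.11 to 1.78, adjusted p-value 0.0230) and mir-222 2.48-fold higher (interval 1.51 to 4.08, adjusted p-value 0.00741). That fit called 47.8% of the 299 miRNAs it tested, and 25.4% as higher in NCs, so such a call was common there. Without NC library C alone, the log2 differences were 0.48 and 1.10, and the adjusted p-values of limma-voom were 0.159 and 0.141. The C libraries by themselves, 1 in each group, allow no test. With the library letter as a covariate, limma-voom called 40.8% of the 316 miRNAs tested, and 21.2% as higher in NCs, but 0 of the 2 members (adjusted p-values 0.441 and 0.162).

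**Figure D3:**
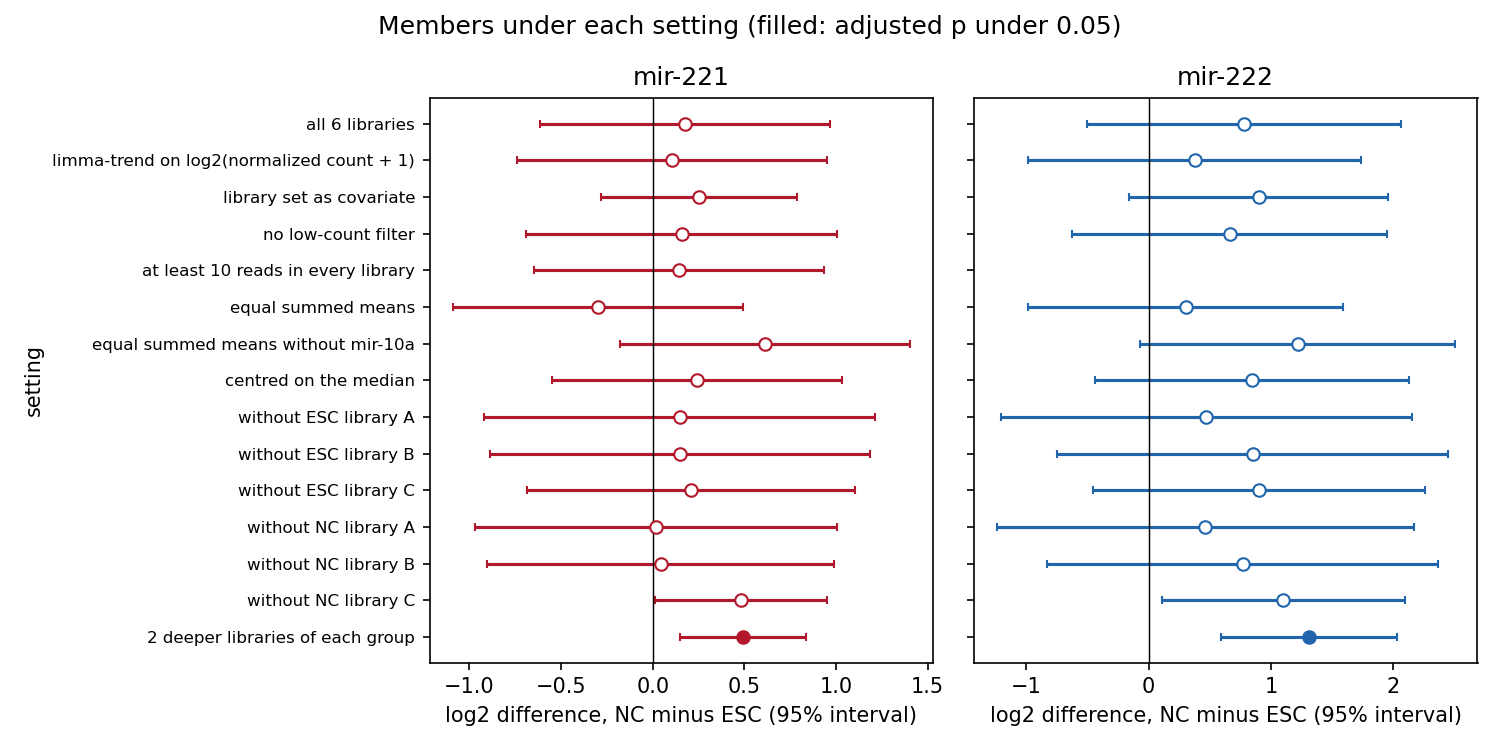
Log2 difference between NCs and ESCs of mir-221 (left) and mir-222 (right) with 95% intervals under each setting of the limma fit. Filled points had an adjusted p-value under 0.05, which occurred only with the 2 deeper libraries of each group, and mir-222 has no value with 10 reads required in every library.

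The C libraries stood apart for most miRNAs. On the log2 scale with a pseudocount of 1, the SD across miRNAs of library C minus the mean of A and B was 1.31 (ESCs) and 1.195 (NCs). For A minus B it was 0.371 and 0.276. Of 283 miRNAs with a mean of at least 10 in both groups, 236 deviated in the C libraries in the same direction in ESCs and NCs. Both members were among the other 47. For mir-221 the deviation was 0.07 in ESCs and -1.09 in NCs, and for mir-222 it was 0.98 and -1.53. In NCs, 61 of 310 miRNAs deviated further down than mir-221 and 41 further down than mir-222, so both lay under the lower quartile of -0.81. The cause was not tested.

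Signs of other cell types were read from lists of marker miRNAs in the same libraries. Of the 6 endothelial and blood miRNAs in the table, 3 were tested and 0 passed in limma-voom, where 15.5% of all miRNAs tested passed. None was at 0 in both groups. Their summed level was 5104, 6093 and 14615 normalized counts in ESC libraries A, B and C. In NC libraries A, B and C it was 5070, 5038 and 2558, so the groups lay furthest apart in the C libraries. The sum was made up almost wholly of mir-126a (means 2563 and 3086), mir-142 (924 and 357) and mir-150 (5114 and 776). These 3 did not share one pattern over the libraries. In NC libraries A, B and C, mir-126a stood at 4211, 4149 and 899 normalized counts and mir-142 at 505, 517 and 47.9, both lowest in C as the members were. In contrast, mir-150 stood at 347, 371 and 1611, highest in C. Of 11 mesenchymal and muscle miRNAs, 5 were at 0 in both groups (among them mir-143, mir-1a-1 and mir-133a-1), and mir-199a-1 and mir-199a-2, whose shared mature sequence leaves the split of reads between them uncertain, rose 2.23-fold and 2.36-fold by their means (adjusted p-value 0.0363 for both, limma-voom). These were the 2 that passed of the 4 tested, while 9.81% of all miRNAs tested were higher in NCs. The smooth-muscle miRNA mir-145a had means of 113 and 67.1, and the widely expressed mir-21a, whose reads were not resolved, 12454 and 12526. The summed level of the 10 resolved members was 135 to 179 in ESC libraries and 162 to 186 in NC libraries. The median log2 difference was -1.89 for the 3 endothelial and blood miRNAs tested and 1.26 for the 4 mesenchymal ones, against -0.07 over all 316 miRNAs. The part of other cells in the values of mir-221 and mir-222 was not tested.

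The labels were checked against markers of each state. Of the 11 embryonic stem cell miRNAs, 6 were tested and 6 fell (median log2 difference -2.97) in limma-voom, where 5.70% of all miRNAs tested were lower in NCs. The sum of the 8 resolved ones was 3074 to 3994 in ESC libraries and 624 to 898 in NC libraries. The mean of mir-290a fell from 1350 to 361 (adjusted p-value 0.00555, limma-voom). The most abundant ones, mir-291a (means 34392 and 6000), mir-292 (78854 and 17207) and mir-293 (20988 and 7432), were not tested because their reads were not resolved. Neural and RA-responsive markers were higher by their means, with a median log2 ratio of 0.90 for 8 detected. Most of the 8 are copies of mir-9 or mir-124, so this median rests on few separate miRNAs. The neural mir-124-1, mir-124-2 and mir-124-3 were barely detected, with means of 2.09 to 2.70 in ESCs and 5.19 to 6.02 in NCs. They had too few reads to be tested. The RA-responsive mir-10a and mir-10b had 353-fold and 40.6-fold higher means in NCs, and were not tested because their NC reads were not resolved. The 3 tested were mir-9-1, mir-9-2 and mir-9-3, copies with nearly the same values (means of 420 to 423 in ESCs and 767 to 768 in NCs), and 0 of them passed the threshold (adjusted p-value 0.0803 for each, limma-voom). Of all miRNAs tested, 9.81% passed as higher in NCs.

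The members varied together across libraries. Over the 6 libraries, the Pearson correlation of log2(normalized count + 1) between mir-221 and mir-222 was 0.859. Of 274 other miRNAs, 0 correlated more closely with mir-222 than mir-221 did, and 5 correlated more closely with mir-221 than mir-222 did. The closest to mir-221 were mir-92a-1 (0.901, from the miR-17-92 cluster, with a mature sequence that mir-92a-2 also gives), mir-33 (0.888) and mir-1843a (0.880). The closest to mir-222 after mir-221 were mir-467b (0.827), mir-28a (0.745) and mir-33 (0.683). These values describe 6 points that share library depth and the deviation of the C libraries. NC library C was the lowest NC library for each of these miRNAs, for instance mir-92a-1 at 532 normalized counts against 3430 and 4118 in NC libraries A and B, and mir-33 with 0 reads.

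The balance within the cluster was read from the ratio of mir-221 to mir-222 reads, which does not depend on the size factors. It was 8.46, 7.11 and 3.90 in ESC libraries A, B and C, and 4.13, 4.75 and 6.5 in NC libraries. The ratio was higher in ESCs in the A and B libraries and lower in the C libraries, and the groups overlapped. The mean log2 ratio was 2.62 ± 0.59 in ESCs and 2.33 ± 0.33 in NCs (SD, n = 3), a difference that an exact 2-sided permutation test did not separate from 0 (p = 0.50; 3 against 3 cannot go below 0.10). The summed level of the members was 75.8, 77.9 and 89.5 normalized counts in ESC libraries and 118, 118 and 51.3 in NC libraries. It was 1.10-fold higher in NCs by the mean of log2 values (p = 0.80, exact 2-sided permutation test, n = 3 and 3).

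Set beside other pairs of neighbouring miRNA genes, the members lay near the middle. There were 136 pairs of neighbouring miRNA genes on one strand within 10000 bases with all means of at least 5. Many of them lay in the run of mir-297, mir-466, mir-467 and mir-669 genes on chromosome 2, so the pairs are not separate clusters. Some partners there had nearly the same values, such as mir-669a-10 and mir-669a-11 (log2 ratios -0.177 and -0.172). The log2 ratios of NC to ESC means (pseudocount 1) were 0.19 for mir-221 and 0.45 for mir-222, which differ by 0.27, against a median of 0.26 (quartiles 0.13 and 0.50) over all pairs. Levels within the pair differed by 2.53 on the log2 scale in ESCs and 2.23 in NCs, against medians of 2.68 and 2.67. In 105 of the 136 pairs both partners moved in the same direction by their means, as mir-221 and mir-222 did. These directions hold for the deposited scaling only. With equal summed means in both groups, the log2 ratio was -0.28 for mir-221 and 0.01 for mir-222. The pairs were not counted at that scaling.

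**Figure D4:**
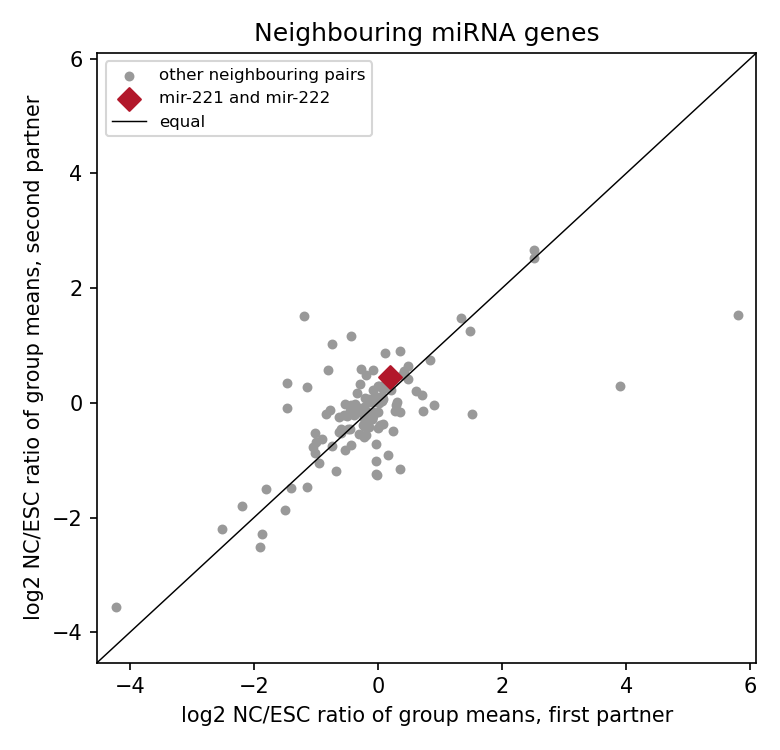
Log2 ratio of NC to ESC group means (pseudocount 1) of the first partner (horizontal axis) and the second partner (vertical axis) for 136 pairs of neighbouring miRNA genes. The pair of mir-221 (0.19) and mir-222 (0.45), a diamond, lies near the line of equal ratios and near the origin.

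Other miRNAs known to act on inhibitors of the cell cycle were described beside the cluster. Of 19 regulators of the CIP/KIP inhibitors of cyclin-dependent kinases (Cdkn1a and Cdkn1b), 15 were tested, 5 fell, 0 rose and 10 did not pass in limma-voom, where 5.70% of all miRNAs tested were lower in NCs, with a median log2 difference of -0.45 against -0.07 for all 316 miRNAs tested. The 5 that fell were mir-302a, mir-302c, mir-302d, mir-294 and mir-295, known for acting on Cdkn1a in ESCs, and all 5 were also in the list of embryonic stem cell miRNAs. The mean of mir-302a fell from 299 to 15.05 (adjusted p-value 0.000433) and that of mir-295 from 882 to 179 (adjusted p-value 0.00804). Of the miR-17 family in this list, mir-17 (2681 in ESCs and 4122 in NCs), mir-20a (1991 and 2796), mir-20b (2918 and 2938), mir-106a (1843 and 2262) and mir-106b (1033 and 1042) did not pass, and all had means far above those of mir-221. Their relative mir-93, the most abundant of this family (10635 and 9735), was not resolved and not tested, and had the lower mean in NCs. The list also held mir-291a, with the higher ESC mean (34392 in ESCs and 6000 in NCs), which was likewise not resolved and not tested. Of those linked to Cdkn1b, mir-24-2 (165 and 112), mir-196a-1 (79.7 and 55.6), mir-196a-2 (122 and 87.5), mir-148a (1102 and 1066) and mir-152 (212 and 352) had the given ESC and NC means, and 0 of these 5 passed.

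Of the 5 regulators of Kit, 2 were tested and 0 passed (median log2 difference -0.56) in limma-voom, where 15.5% of all miRNAs tested passed. mir-34a, a target of p53, had means of 591 in ESCs and 554 in NCs (adjusted p-value 0.913), and mir-494 had 24.9 and 8.39 (adjusted p-value 0.192). mir-137 was listed at 0 in both groups, and mir-193a and mir-193b had means of at most 1.17. By its mean, mir-34a was thus above mir-221 in both groups, and mir-494 lay between the members in ESCs.

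The other miRNAs of the X chromosome were read beside the members. Of 74 other X-linked miRNAs matched to the annotation, 60 were detected and 34 tested. Of these 34, 3 rose and 0 fell in limma-voom, where 9.81% of all miRNAs tested were higher and 5.70% lower in NCs. The median log2 difference of the 34 was 0.13, smaller than the shift between scalings. The 3 that rose were mir-188 (means 53.6 and 151, adjusted p-value 0.0101), mir-362 (12.3 and 32.6, adjusted p-value 0.0398) and mir-532 (1346 and 3197, adjusted p-value 0.0389). These 3 are neighbours on one strand and not separate loci. Between mir-362 and mir-188 lie 5942 bases, and between mir-188 and mir-532 lie 345. mir-221 and mir-222 were thus not among the X-linked miRNAs that passed.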

How the data were processed

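Small RNA libraries of 3 ESC and 3 NC samples were deposited as 1 table of 898 miRNA genes. Its signal values are the group means of read counts that the authors normalized, per the labels with DESeq, on mm10; adapter removal, aligner and counting rules are not given in the sources used here. The authors' columns of fold changes and p-values were not used. Because a group mean is a sum of whole reads times 3 steps, size factors and single-library reads were recovered for 528 of 549 (ESC) and 581 of 602 (NC) detected miRNAs. These miRNAs held 12.3% (ESC) and 9.87% (NC) of the summed means, and the lowest unresolved means were 8614 and 8399. Recovered reads were tested with limma-voom (limma 3.58.1, R 4.3.3) and the recovered size factors, at least 10 reads in at least 3 libraries and Benjamini-Hochberg adjustment (threshold 0.05). Both steps were tried on simulated data, in which no library deviated as the C libraries did. Sums and ratios were tested with exact permutation tests (scipy 1.17.1). The text names the members, miRNAs with their seed, the 3 that correlate most closely with each, and listed miRNAs that passed or reached the level of mir-222 (X-linked ones that did not pass, and the rest, by counts). Members and lists were chosen with earlier results of these data known. Intervals cover counting error only where called Poisson. Alternatives were other scalings, filters, pseudocounts, models and left-out libraries.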

Additional observations from a re-analysis of the deposited data

How the results depend on the processing

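Only the 2 deeper libraries of each group put the members past the threshold, at log2 differences of 0.49 (mir-221) and 1.31 (mir-222). Equal summed means turned mir-221 to -0.30, its log2 ratio of group means to -0.28 and the summed level to -0.33. Leaving out 1 library at a time gave 0.017 to 0.48 for mir-221, 0.46 to 1.10 for mir-222, -0.057 to 0.54 for the summed level (-0.057 without NC library A and -0.056 without NC library B) and -0.62 to -0.065 for the log2 ratio of the members. The 49 calls became 129 with the library set as covariate, 143 with the deeper libraries, 30 with 10 reads in every library, and 8 to 47 with 1 library left out (in ESCs, 22 without A and 25 without B; in NCs, 13 without A and 8 without B). The causes were not tested. Requiring 10 reads in every library removed mir-222. No paired analysis was possible by the labelled replicate numbers because no label ties one to a library read from the means. The library set above matches libraries by the order of their size factors alone. The 4 reads of mir-222 in NC library C limit its precision.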
